A study of Mus musculus with 9 samples.

Results

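Prostanoids are short-lived lipid signals made from arachidonic acid. The genes described here make prostanoids, break them down or receive them: 10 genes out of the 59445 features of the table, picked by symbol and each matched by 1 feature. They are the cyclooxygenases Ptgs1 and Ptgs2, the terminal synthases Ptges, Ptges2, Ptges3, Tbxas1 and Hpgds, the inactivating enzyme Hpgd, and the prostaglandin E2 (PGE2) receptor genes Ptger2 and Ptger4. All 10 passed the filter on low values and were tested. RNA sequencing was done on F4/80+ CD11b+ macrophages, sorted from liver cells other than hepatocytes of male C57BL/6 mice. The mice were 5 MAGL Mye-/- animals (libraries S8 to S12; S9, S10 and S11 from mice aged 10 weeks, S8 and S12 from mice aged 11 weeks) and 4 MAGL fl/fl animals (S1, S3, S4 and S5, all aged 11 weeks). Every mouse, fl/fl included, had received 1 intraperitoneal dose of carbon tetrachloride (CCl4), a liver toxin, labelled as 0.6 mg/kg, 24 hours earlier, so uninjured liver is not part of the comparison. MAGL, the product of Mgll, is monoacylglycerol lipase. The labels give the floxed allele and the word Mye for the deletion, but neither the Cre driver nor the deleted part of the gene.

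Cyclooxygenases turn arachidonic acid into prostaglandin H2, and terminal synthases turn that into PGE2, prostaglandin D2 or thromboxane. The enzyme encoded by Hpgd oxidises prostaglandins to forms with little activity, and PGE2 acts on macrophages mainly through EP2 and EP4, receptors that raise cyclic AMP. MAGL splits the endocannabinoid 2-arachidonoylglycerol and thereby releases arachidonic acid, which in mouse liver is a known source for prostaglandin synthesis. Whether transcripts of this pathway differ when myeloid MAGL is missing is the question that the comparison addresses.

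Values are reads normalized by the authors with DESeq, one size factor per library, and are not corrected for gene length. Libraries held 35691354 to 46489349 reads in Mye-/- and 33383559 to 43884866 in fl/fl, with 15614 to 16802 and 14240 to 16385 features detected. The sorted cells carried the genes of their sort: Itgam (CD11b) was at 49711 ± 4679 in Mye-/- (SD, n = 5) and 48739 ± 7072 in fl/fl (SD, n = 4), and Adgre1 (F4/80) at 6443 ± 1054 and 5433 ± 658. Of 6 macrophage identity genes 5 were on the higher and 1 on the lower side, and none passed with limma. The lower one, Lyz2 (lysozyme 2), did not overlap between genotypes, where 1.6% of all features tested separated in that direction. It was at 169027 ± 24893 in Mye-/- and 308919 ± 83367 in fl/fl (limma adjusted p = 0.218, DESeq2 adjusted p = 4.14e-05). The neutrophil genes S100a8, at 17455 ± 6352 in Mye-/- and 30191 ± 8906 in fl/fl, and S100a9, at 2841 ± 2327 and 5906 ± 1444, also had lower means in Mye-/- (limma adjusted p = 0.267 and 0.218). Of 10 neutrophil markers 6 were tested, 3 on the higher and 3 on the lower side, and 0 passed with limma. Csf3r, of the same list, was higher, at 4390 ± 673 in Mye-/- and 3239 ± 725 in fl/fl (limma adjusted p = 0.361). The part of Lyz2 and the neutrophil genes in the results below was not tested. Mgll, the targeted gene, was at 0 to 46.6 in Mye-/- and 0 to 106.5 in fl/fl, too low in both genotypes to check the labels. Low values are less exact than single reads would be: 66.1% to 68.3% of nonzero counts under 1000 were even and low counts piled up near 24 to 70 reads, depending on the library.

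None of the 10 genes passed the test between genotypes (limma, Benjamini-Hochberg over all 15288 features tested, threshold 0.05), where 0.0196% of all features passed. The count was also 0 with edgeR and with DESeq2 on recovered reads, which called 0.0131% and 0.805% of all features. DESeq2 gave no adjusted p to 5 of the genes, Ptgs1, Ptges, Ptges2, Hpgds and Hpgd. At an unadjusted p under 0.05, limma placed 5 of the 10 genes, 4 higher in Mye-/- (Ptgs1, Ptgs2, Hpgd and Ptger4) and 1 lower (Ptger2). Of all features, 10.5% met that limit, 6.38% on the higher and 4.13% on the lower side. The same count was 3 with edgeR and 4 with DESeq2, where 8.02% and 8.87% of all features met it. The median log2 fold change of the 10 genes was 0.50, Mye-/- minus fl/fl, and that of all features tested was 0.06. In these bulk samples a lower share of cells that express a gene and less RNA per cell cannot be told apart.

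Set per kilobase of exon, a scale on which genes can be ranked, Ptgs2 and Ptges3 stood far above the other 8 genes. Ptgs2 was at 4051 ± 859 normalized reads per kb in Mye-/- (SD, n = 5) and 3032 ± 1144 in fl/fl (SD, n = 4), and Ptges3 at 2178 ± 355 and 2685 ± 470.1. Their order was not fixed, since Ptgs2 was above Ptges3 in 5 of 5 Mye-/- libraries and in 2 of 4 fl/fl libraries. Every value of Ptges3 lay above every value of Hpgd, the next gene, at 468 ± 239 per kb in Mye-/- and 208 ± 141 in fl/fl. Below it came Ptger4, Ptger2, Tbxas1, Ptges2 and Ptgs1, whose overall means ran from 182 to 60.4 per kb, and each of these overlapped the next in its range. Ptges and Hpgds closed the order. Hpgds, the lowest, was at 18.1 ± 7.61 per kb in Mye-/- and 11.2 ± 7.79 in fl/fl.

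**Figure D1:**
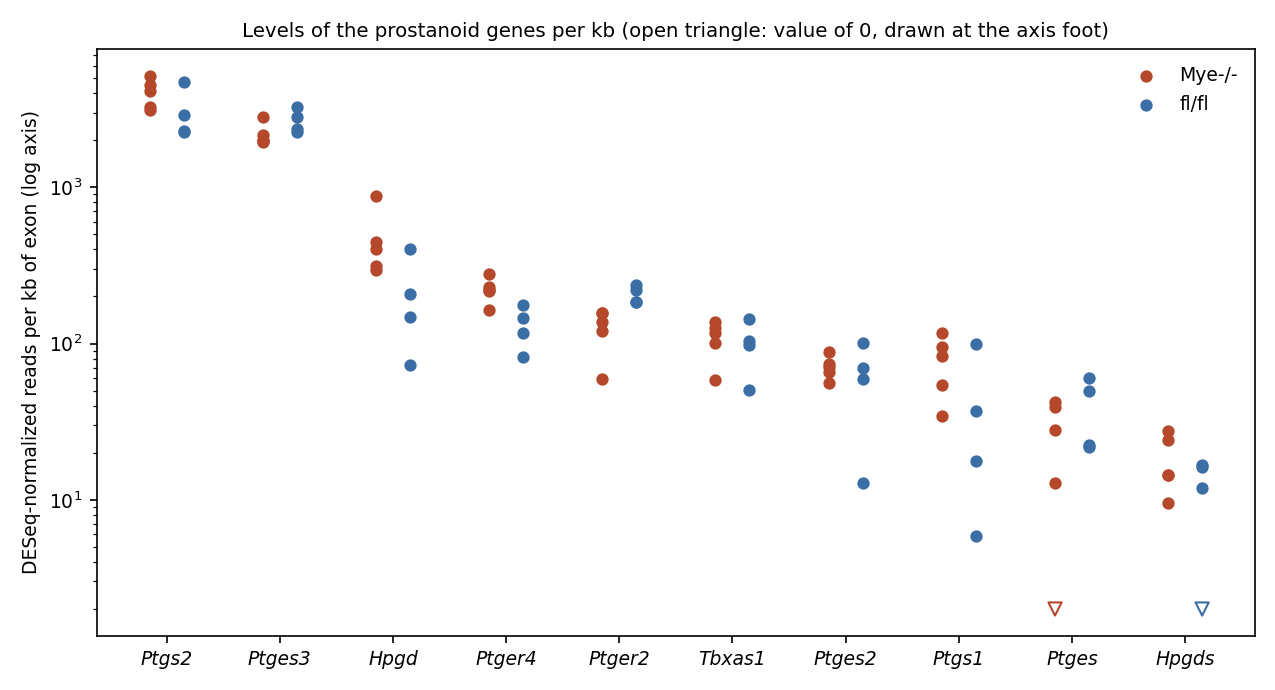
Level of each gene in DESeq-normalized reads per kb of exon (vertical log axis), with 1 point per library, Mye-/- (red, left) beside fl/fl (blue, right), genes ordered by their mean over 9 libraries. Ptgs2 and Ptges3 lie above the other 8 genes in every library, and the 2 open triangles are the values of 0 for Ptges in Mye-/- S10 and for Hpgds in fl/fl S3.

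The means of the PGE2 receptor genes lay in opposite directions, and neither gene passed the test. Ptger4 (chr15:5206661-5244190, mm10) encodes EP4, and its mean was 1.70 times as high in Mye-/- as in fl/fl. Ptger2 (chr14:44988111-45003820, mm10) encodes EP2, and its mean in Mye-/- was 0.613 times that in fl/fl. The sequences before the starts of both genes are shown because these genes form the receptor pair, together with that of Ptgs2, the most abundant gene of the set. Each holds the 250 bases upstream of the RefSeq start (GRCm38.p6, 5′ to 3′ on the gene's strand), with matches to the motifs below in capitals.
Ptger4, chr15:5244188-5244437, minus strand: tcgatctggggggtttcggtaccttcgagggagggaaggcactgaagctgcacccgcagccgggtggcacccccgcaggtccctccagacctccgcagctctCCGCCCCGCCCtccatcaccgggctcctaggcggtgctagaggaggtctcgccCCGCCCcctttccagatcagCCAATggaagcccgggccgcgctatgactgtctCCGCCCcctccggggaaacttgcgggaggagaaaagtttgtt
Ptger2, chr14:44987861-44988110, plus strand: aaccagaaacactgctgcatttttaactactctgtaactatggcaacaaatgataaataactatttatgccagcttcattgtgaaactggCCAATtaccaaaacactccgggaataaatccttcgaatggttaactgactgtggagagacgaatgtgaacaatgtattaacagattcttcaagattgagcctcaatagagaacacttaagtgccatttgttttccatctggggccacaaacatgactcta
Ptgs2, chr1:150099781-150100030, plus strand: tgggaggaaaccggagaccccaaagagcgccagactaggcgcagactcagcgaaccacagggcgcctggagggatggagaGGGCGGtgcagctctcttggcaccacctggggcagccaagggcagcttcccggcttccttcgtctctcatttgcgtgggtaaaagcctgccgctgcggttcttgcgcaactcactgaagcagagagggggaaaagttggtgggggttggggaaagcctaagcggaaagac

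The window of Ptger4 was rich in G and C (66.8%), that of Ptger2 poor (38.0%) and that of Ptgs2 rich (61.6%), against a median of 52.4% over 32851 mouse promoter windows. Motifs were searched on both strands over the 300 bases from 250 before to 50 after the start. GGGCGG, the GC box, was found 4 times before the start of Ptger4, with 2 of the matches 5 bases apart, once before that of Ptgs2 and not in the window of Ptger2. It is present in 35.7% of all windows. CCAAT, the CCAAT box, was found once in Ptger4 and once in Ptger2, and is in 37.4% of windows. TGACG, the core of the cyclic AMP response element, and CACGTG, the E-box, were found within Ptgs2 only, 14 and 17 bases after the start, and overlap each other by 2 bases. They are in 20.8% and 7.15% of all windows. TGANTCA, the AP-1 site, was in none of the 3 windows and is in 7.81% of all. These matches describe letters and were not tested against expression.

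Ptger4 was at 1467, 1441, 1858, 1095 and 1534 normalized reads in Mye-/- S8 to S12, against 547, 781, 974 and 1181 in fl/fl libraries S1, S3, S4 and S5. In Mye-/-, 4 of 5 libraries were above the highest fl/fl value, and Mye-/- S11 fell between fl/fl S4 and S5. The log2 fold change was 0.80 ± 0.24 (SE; 95% interval 0.30 to 1.30; limma unadjusted p = 0.00331, adjusted p = 0.267), and DESeq2 gave an adjusted p of 0.104. Without fl/fl S1 and S3 the log2 fold change was 0.44 (limma adjusted p = 0.595).

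Ptger2 was at 814, 627, 309, 809.7 and 718 in Mye-/- S8 to S12, against 1228, 965, 951 and 1136 in fl/fl libraries S1, S3, S4 and S5. It was the 1 gene of the 10 whose genotypes did not overlap, all 5 Mye-/- values being below all 4 fl/fl values. Of all features tested, 1.6% separated in that direction and 3.3% in either. The log2 fold change was -0.78 ± 0.28 (SE; 95% interval -1.37 to -0.18; limma unadjusted p = 0.0133, adjusted p = 0.343). It was -0.48 among mice aged 11 weeks alone (limma adjusted p = 0.976), and Mye-/- S10, from a mouse aged 10 weeks, held the lowest value.

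Within single libraries the order of the receptors differed by genotype. Ptger4 stood above Ptger2 per kb of exon in 5 of 5 Mye-/- libraries and in 0 of 4 fl/fl libraries. The ratio of Ptger4 to Ptger2 was 1.41, 1.80, 4.70, 1.06 and 1.67 in Mye-/- S8 to S12, and 0.348, 0.632, 0.800 and 0.812 in fl/fl libraries S1, S3, S4 and S5. Mye-/- S10 had the highest ratio and Mye-/- S11 the lowest of its genotype, still above every fl/fl library. Without the division by exon length, Ptger4 had more normalized reads than Ptger2 in 5 of 5 Mye-/- libraries and in 2 of 4 fl/fl libraries, at a ratio of 1.35 to 6.02 in Mye-/- and 0.445 to 1.04 in fl/fl, so which receptor is on top in fl/fl S4 and S5 depends on the exon lengths used. The ratio is made of the values given above, in which Ptger2 alone did not overlap between genotypes. It is given as a description of genes chosen with earlier results known and carries no test. Without strand information, reads of antisense neighbours cannot be separated: exons of Ptger4 share 1015 bases with the pseudogene Gm15937 and 82 with Ttc33, and those of Ptger2 share 246 with Gm17173 and 144 with Gm49364, all on the opposite strand (GENCODE M21). The same holds for Ptgs1, with 148 bases shared with Gm43621, and Tbxas1, with 144 shared with Gm42962.

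**Figure D2:**
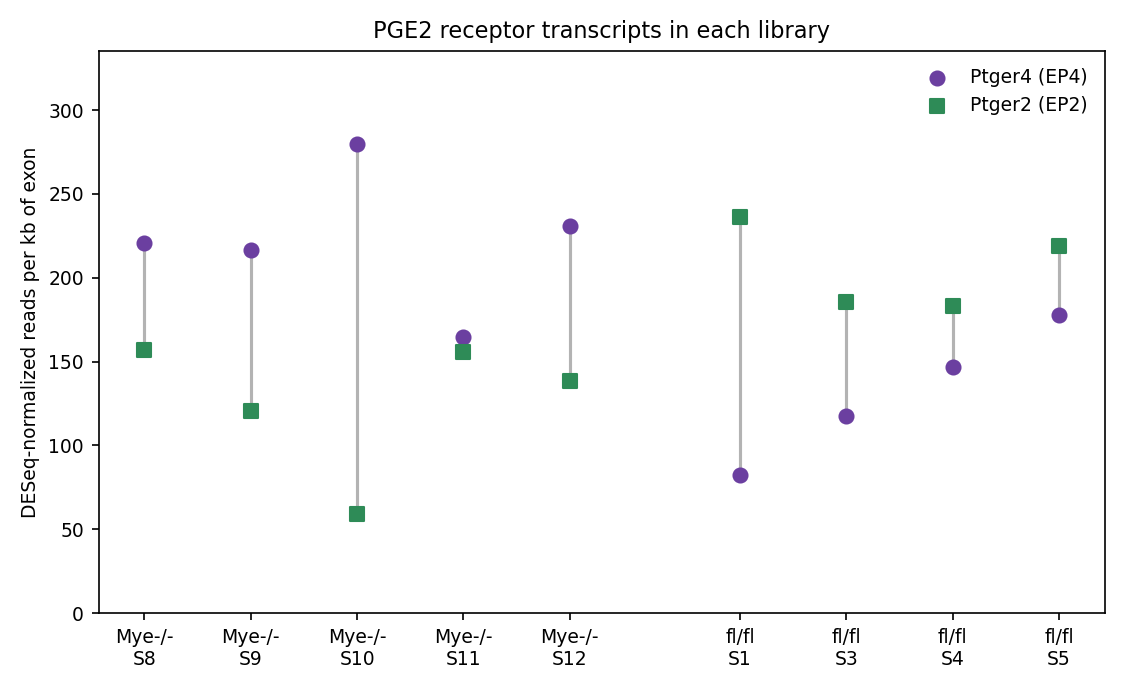
Ptger4 (circles) and Ptger2 (squares) in DESeq-normalized reads per kb of exon (vertical axis) in each library, the 5 Mye-/- libraries on the left and the 4 fl/fl libraries on the right, with a line joining the receptors of a library. The circle is above the square in all 5 Mye-/- libraries and below it in all 4 fl/fl libraries.

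Hpgd (chr8:56294552-56321046, mm10) encodes 15-hydroxyprostaglandin dehydrogenase, which starts the breakdown of PGE2. It was at 752, 497, 1480.2, 683 and 524 in Mye-/- S8 to S12, against 123, 677, 349 and 249 in fl/fl libraries S1, S3, S4 and S5. The mean in Mye-/- was 2.25 times that in fl/fl, and fl/fl S3 lay inside the Mye-/- range while the other fl/fl libraries lay below it. The log2 fold change was 1.31 ± 0.44 (SE; 95% interval 0.39 to 2.22; limma unadjusted p = 0.00759, adjusted p = 0.318). It was 2.02 once the count of detected features was a term of the fit (limma adjusted p = 0.592).

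In liver, Hpgd is also a transcript of Kupffer cells, the resident macrophages, and markers of Kupffer cells and of hepatocytes also had higher means in Mye-/-. All 10 Kupffer cell markers had a higher mean in Mye-/-, and of the 7 tested none passed. Of all features tested, 54.6% had a log2 fold change above 0. The markers were low, with 4 of the 10 at 0 in 5 or more libraries, and Xlr was level, at means of 67.2 in Mye-/- and 66.2 in fl/fl. Their summed level was 345 to 2230.4 in Mye-/- and 136 to 626 in fl/fl. The highest fl/fl sum, in S4, was above those of Mye-/- S8, S9 and S12. Clec4f, a lectin of Kupffer cells, was at 33.3 to 603 in Mye-/-. In fl/fl it was at 0 in 3 of 4 libraries and at 73.8 in S5, above Mye-/- S8, S9 and S12. Timd4, another defining marker, was at 0 in 8 of 9 libraries. The 10 hepatocyte markers summed to 1375 to 11914 in Mye-/- and 673 to 1990.2 in fl/fl, with 9 of 10 means higher in Mye-/- and Cyp2e1 at 0 in all Mye-/- libraries. Mye-/- S10 was highest for Hpgd and for both sums. Without it the log2 fold change of Hpgd was 1.05 (limma adjusted p = 0.530). Of 8 monocyte-derived macrophage markers, all tested, 3 were on the higher and 5 on the lower side, and 0 passed with limma. They summed to 452136 to 741217 in Mye-/- and 407766 to 638808 in fl/fl. The part of these cell types in the Hpgd difference was not tested.

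**Figure D3:**
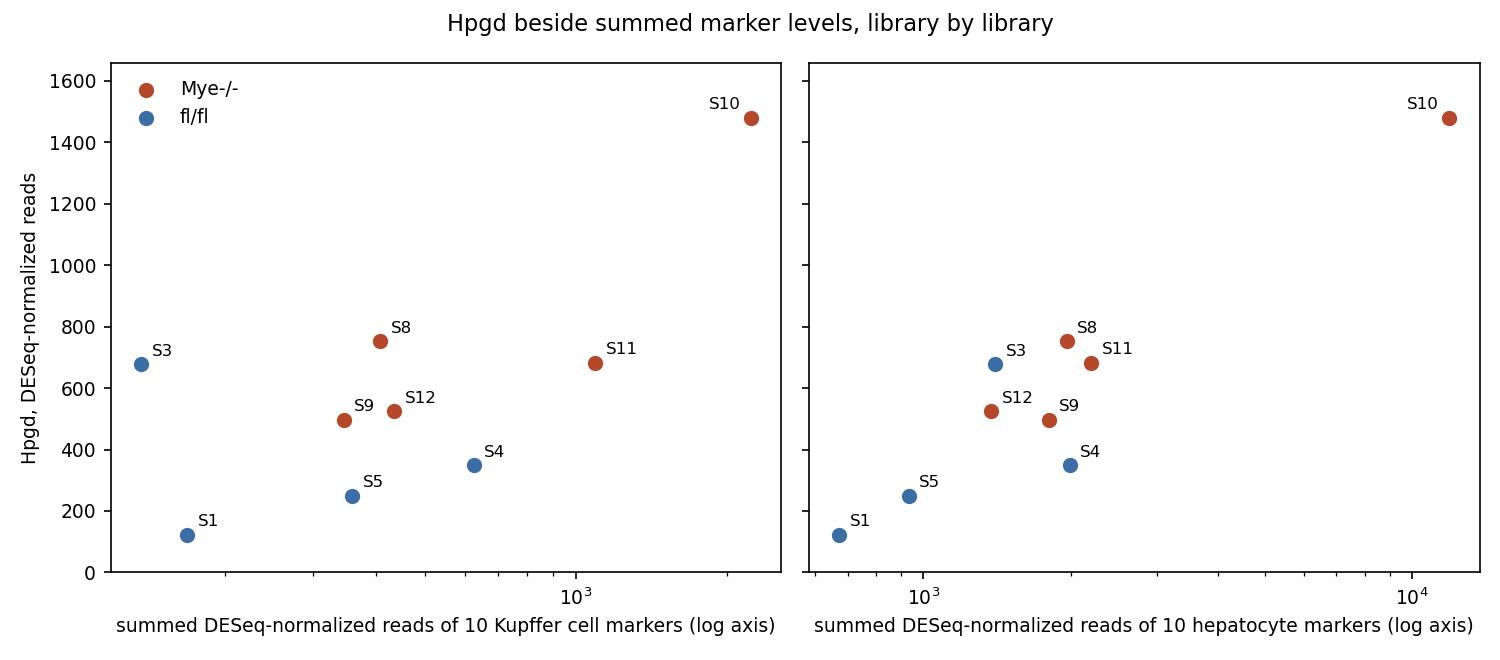
Hpgd in DESeq-normalized reads (vertical axis) against the summed reads of 10 Kupffer cell markers (left, log axis) and of 10 hepatocyte markers (right, log axis), with 1 point per library, Mye-/- in red and fl/fl in blue. Mye-/- S10 is at the upper right of both panels, with 1480.2 for Hpgd, and fl/fl S3 combines 677 for Hpgd with the lowest Kupffer sum, 136.

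Ptgs2 (chr1:150100031-150108234) encodes COX-2, the inducible cyclooxygenase and an immediate-early gene of activated macrophages. It was at 19048, 20795.5, 14274, 23637 and 15009.9 in Mye-/- S8 to S12, against 10422, 13301, 10352 and 21473 in fl/fl libraries S1, S3, S4 and S5. Of the fl/fl libraries, 3 lay below every Mye-/- library, and fl/fl S5 lay above all but Mye-/- S11. The mean was 1.34 times as high in Mye-/-, with a log2 fold change of 0.46 ± 0.20 (SE; 95% interval 0.04 to 0.88; limma unadjusted p = 0.0331, adjusted p = 0.438). Without fl/fl S5 it was 0.69 (limma adjusted p = 0.120), and over all left-out single libraries it ran from 0.34 to 0.69. With the count of detected features as a term it was 0.14, and without fl/fl S1 and S3 0.29.

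Ptgs1 (chr2:36230425-36252269) encodes COX-1, the constitutive form, abundant in platelets. It was at 368, 212, 324, 453 and 134 in Mye-/- S8 to S12, against 384, 69.2, 22.7 and 144 in fl/fl libraries S1, S3, S4 and S5. The genotypes overlapped through fl/fl S1, the second highest value of all, and fl/fl S3 and S4 rested on 58 and 26 reads. Low counts piled up near 56 reads in fl/fl S3 and near 70 in fl/fl S4. The log2 fold change was 1.48 ± 0.71 (SE; limma unadjusted p = 0.0497, adjusted p = 0.473), and it ran from 0.80 without fl/fl S4 to 2.14 without fl/fl S1, with 0.94 from DESeq2 and 2.23 without fl/fl S1 and S3. The 9 platelet markers summed to 323 to 492 in Mye-/- and 236 to 435 in fl/fl, with 6 of them at 0 in 5 or more libraries and Gp6 at 0 in all. Per kb of exon Ptgs2 exceeded Ptgs1 by 37.4 to 94.9 times in Mye-/- and by 23.0 to 387 times in fl/fl.

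Of the 3 PGE2 synthases, Ptges3 (chr10:128058950-128077270) had the highest level per kb of exon in every library. It encodes p23, a cochaperone of Hsp90 that also has cytosolic PGE2 synthase activity, and was at 6199, 4363, 4351, 4446 and 4779.5 in Mye-/- S8 to S12, against 7277, 4994, 5259 and 6279 in fl/fl libraries S1, S3, S4 and S5. In Mye-/-, 4 of 5 libraries were below the lowest fl/fl value and S8 was not. The log2 fold change was -0.30 ± 0.15 (SE; 95% interval -0.62 to 0.02; limma unadjusted p = 0.0651, adjusted p = 0.503), and it was -0.11 among mice aged 11 weeks alone and -0.20 without fl/fl S1. Processed copies of Ptges3, such as the pseudogene Ptges3-ps, can share its reads.

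Ptges (chr2:30889471-30903302) encodes the inducible microsomal synthase that is usually coupled to COX-2. Its values were 109.6, 153, 0, 50.2 and 166 in Mye-/- S8 to S12, against 88.2, 196, 85.5 and 237 in fl/fl libraries S1, S3, S4 and S5. The genotypes overlapped, and the log2 fold change of -1.68 ± 1.25 (SE; limma adjusted p = 0.665) leaned on the value of 0 in Mye-/- S10, without which it was -0.33. It was -0.02 among mice aged 11 weeks, -2.17 without Mye-/- S12 and -3.32 with the count of detected features as a term (limma adjusted p = 0.811). In Mye-/- S10, 3 reads correspond to 2.54 normalized reads, an upper limit for counting error only. Ptges2 (chr2:32395890-32402740), a membrane-associated synthase, was at 282 to 445 in Mye-/- with a median of 356 and at 64.6 to 508 in fl/fl with a median of 325. Its log2 fold change was 0.54 ± 0.51 (SE; limma adjusted p = 0.743), and it was -0.088 without fl/fl S4.

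Thromboxane and prostaglandin D2 synthases overlapped between genotypes. Tbxas1 (chr6:38875403-39084584), thromboxane A synthase, was at 921, 1056, 529.8, 1254 and 1140.2 in Mye-/- S8 to S12, against 1303, 458, 951 and 889 in fl/fl libraries S1, S3, S4 and S5. Mye-/- S10 and fl/fl S3 were the low libraries of their genotypes. The log2 fold change was 0.16 ± 0.30 (SE; 95% interval -0.48 to 0.80; limma adjusted p = 0.885), and without fl/fl S3 it was -0.13. Hpgds (chr6:65117293-65144908), the haematopoietic prostaglandin D synthase of mast cells and some macrophages, was at 60.9 to 178 in Mye-/- with a median of 93.2 and at 0 to 107 in fl/fl with a median of 90.6. Its log2 fold change of 1.83 ± 1.23 (SE; limma adjusted p = 0.625) rested on the value of 0 in fl/fl S3, and was 0.18 without that library. Mast cell and basophil markers were close to absent, with 8 genes summing to 71.0 to 94.0 in Mye-/- and 137 to 489.5 in fl/fl, and Mcpt4 and Tpsb2 at 0 in all libraries.

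**Figure D4:**
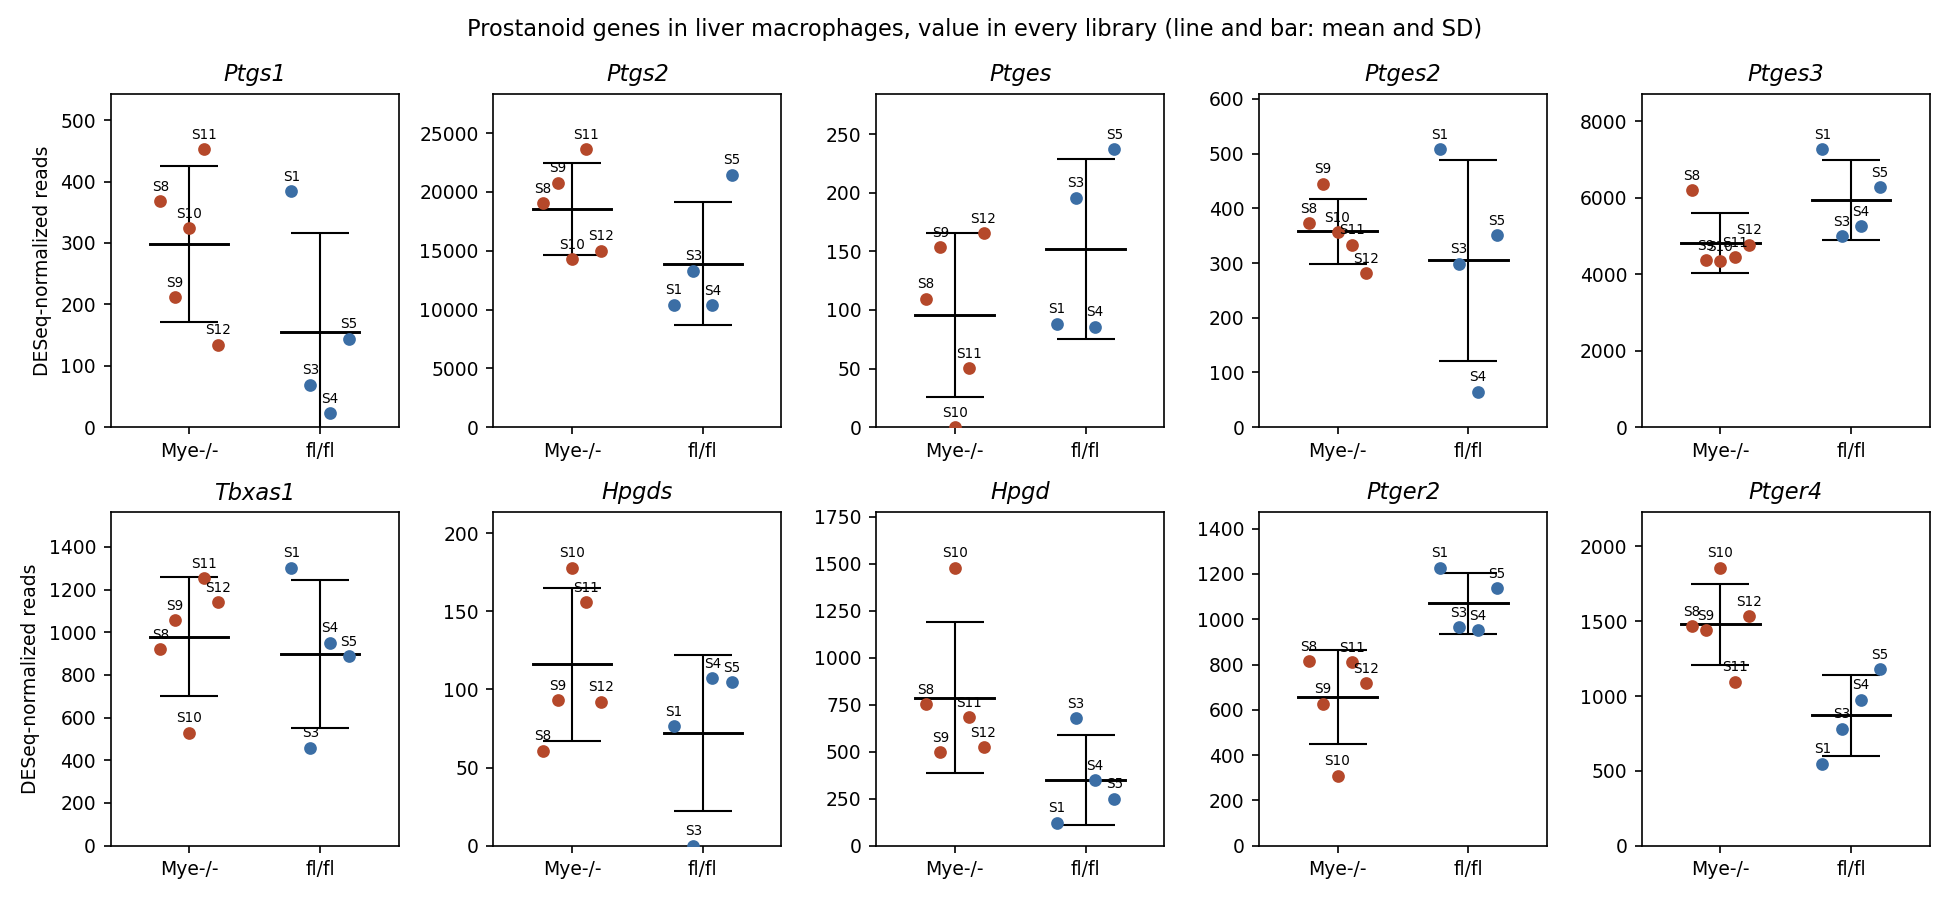
DESeq-normalized reads (vertical axes, each from 0) of the 10 genes in every library, Mye-/- left in red and fl/fl right in blue, with mean and SD as black lines; the lower bar of Ptgs1 in fl/fl is cut at 0. Ptger2 is the 1 panel in which no Mye-/- point reaches the level of a fl/fl point, and Hpgd in Mye-/- S10 stands far above the rest.

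**Figure D5:**
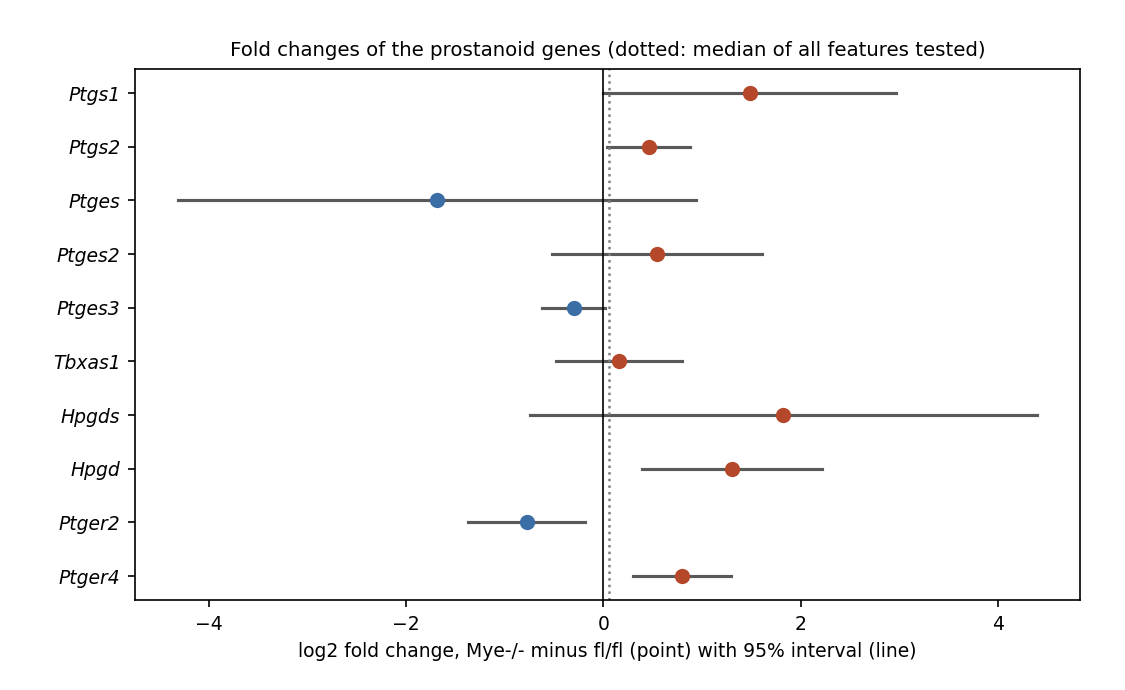
Log2 fold change, Mye-/- minus fl/fl, of each gene (point, red where higher and blue where lower in Mye-/-) with its unadjusted 95% interval from limma (line), and the median of all 15288 features tested (dotted line, 0.06). The intervals of Ptgs1, Ptgs2, Hpgd and Ptger4 lie above 0 and that of Ptger2 lies below 0, and those of Ptges and Hpgds are the widest.

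Among the other enzymes of prostanoid metabolism, most of those tested had a log2 fold change below 0. Of 12 such genes 9 were tested, with 2 log2 fold changes above 0 and 7 below. Their median was -0.41, beside 0.06 for all features, of which 54.6% were above 0. At the adjusted threshold 0 passed with limma, edgeR or DESeq2. Unadjusted, 3 had a limma p under 0.05, all lower in Mye-/- (Akr1b3, Akr1b8 and Ptgr1), where 4.13% of all features met that limit on the lower side. Akr1b3 and Ptgr1 also met it with edgeR and DESeq2. Akr1b3, an aldo-keto reductase that can make prostaglandin F2α, was at 1373 ± 292 in Mye-/- (SD, n = 5) and 2311 ± 786 in fl/fl (SD, n = 4; limma adjusted p = 0.297), in a feature shared with Gm6644. Its log2 fold change was -0.72, and -0.30 without fl/fl S1 and S3. Fam213b, prostamide/prostaglandin F synthase, was at 589 ± 202 in Mye-/- and 807 ± 324 in fl/fl (limma adjusted p = 0.684). Ptgr1, which reduces the products of Hpgd further, was at 2328 ± 364 and 3159 ± 358 (limma adjusted p = 0.332). Hpgd had the higher mean in Mye-/- and Ptgr1 the lower, neither past the threshold. Ptgr2 and Zadh2, of the same list, were at 852 and 851 in Mye-/- and at 858 and 988 in fl/fl (limma adjusted p = 0.974 and 0.750). Akr1b8, a related reductase, was at 0 to 22.5 in Mye-/- and 29.8 to 90.5 in fl/fl, too few reads for a fold. Ptgds and Gstm2 were at 0 in all 9 libraries, and Ptgis, prostacyclin synthase, was at 0 in 7 of 9.

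Among 10 other receptor and transporter genes 4 were tested, 2 higher and 2 lower with a median of 0.03, and 0 passed (limma; 0 also at an unadjusted p under 0.05). Ptgir, the prostacyclin receptor, was abundant, at 1137 ± 452 in Mye-/- and 1178 ± 200.2 in fl/fl, as was Abcc4, an exporter of prostanoids, at 2068 ± 291 and 2302 ± 510.0. The receptors Ptgdr, Ptgfr and Tbxa2r were at 0 in all 9 libraries. Ptger1 and Ptger3, the other PGE2 receptor genes, did not exceed 235 and 35.3 in any Mye-/- library or 199 and 33.4 in any fl/fl library.

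Genes that supply arachidonic acid did not pass the test. Of 12 genes 10 were tested, 3 higher and 7 lower with a median of -0.09, and 0 passed (limma; 0 at an unadjusted p under 0.05). Lpcat3, which puts arachidonic acid into phospholipids and had the smallest p of the list, was at 802 ± 168 in Mye-/- and 1132 ± 467 in fl/fl (log2 fold change -0.41 ± 0.29, SE; limma adjusted p = 0.651). Lpcat2, another acyltransferase, was at 2773 ± 800 and 2482 ± 364. Pla2g4a, the cytosolic phospholipase A2 that releases arachidonic acid from membranes, was at 1967 ± 376 in Mye-/- and 2201 ± 749 in fl/fl. Daglb, which makes the substrate of MAGL, was at 1201 ± 370.3 and 1017 ± 83.5.

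Cyclic AMP and CREB response genes, which EP2 and EP4 among many other inputs can induce, mostly had higher means in Mye-/-. All 14 were tested, 12 on the higher and 2 on the lower side, at a median of 0.30 beside 0.06 for all features, of which 54.6% were on the higher side, and 0 passed with limma. Unadjusted, 4 of them had a p under 0.05, each higher in Mye-/-, where 6.38% of all features met that limit on the higher side. Nr4a2, an orphan nuclear receptor, was at 15379 ± 3597 in Mye-/- and 6962 ± 1981 in fl/fl, a log2 fold change of 1.15 ± 0.20 (SE; limma adjusted p = 0.0506), and DESeq2 called it (adjusted p = 2.05e-05). Fosl2, an AP-1 subunit, was at 110400 ± 28657 and 69425 ± 22847 (limma adjusted p = 0.295), Thbs1 at 140421 ± 13005 and 98045 ± 39193 (0.354), and Sik1, a kinase induced by cyclic AMP, at 31621 ± 5331 and 25342 ± 3312 (0.470). With the count of detected features as a term the log2 fold changes of Fosl2, Thbs1 and Sik1 were 0.25, 0.25 and 0.12, against 0.69, 0.61 and 0.31 without it, and that of Thbs1 was 0.33 without fl/fl S3. These genes also answer many signals other than prostanoids, and no part of the receptors in their levels was tested.

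Beyond the pathway, the features whose pattern over the 9 libraries was most like that of Ptgs2 were Polrmt, Pde7a and Elf4, with Pearson r of 0.97, 0.95 and 0.95 and Spearman rho of 0.97, 0.85 and 0.90. Those most like Hpgd were Mtr, Map1s and Abcd2, with r of 0.98, 0.95 and 0.94 and rho of 1, 0.87 and 0.87. The correlations were taken on log2 values after each genotype's mean was removed, and these genes are the top 3 of 6762 named features whose overall mean reached 500, so the values come with no p and describe likeness only.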

How the data were processed

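Transcript levels came from 9 libraries of sorted liver macrophages. The authors deposited signal values, reads per feature scaled by 1 size factor per library, per the submitters' processing notes with DESeq, on a linear scale and not per length. Those notes also name STAR 2.4.0, SAMtools, Picard, FastQC and mm10. The file headers name FAST DB features. The counting tool, strand setting and duplicate handling are not given in the sources used here. All values (100% in each library, tolerance 0.01 reads) were whole multiples of 1 read, which gave back whole reads.

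The test was limma-trend (limma 3.58.1, R 4.3.3) on log2(value + 1), 5 Mye-/- minus 4 fl/fl libraries. Features entered if 4 or more libraries reached a value of 10, which left 15288, and two-sided p-values were adjusted by Benjamini-Hochberg. Fold changes are on that log2(value + 1) scale. For low genes a library at or near 0 can set their size, so that those of Hpgds, Ptges and Ptgs1 were larger than with DESeq2 (0.68, -0.67 and 0.94). P-values assume that each library is a separate mouse. The code was tested on simulated data. edgeR 4.0.16 and DESeq2 1.42.0 on recovered reads, pseudocounts, filters, scalings, covariates and left-out libraries were alternatives. Exon lengths are the union of exons in GENCODE M21 (GRCm38), which may differ from the FAST DB models, and promoter windows are from RefSeq (GRCm38.p6).

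The 10 genes, the gene lists, tests and alternatives were chosen with earlier results of these data known. Genes named besides the 10 are up to 4 per list with the smallest p whose mean reached 50 in either genotype, the targeted gene, Itgam and Adgre1, and the 3 features most like Ptgs2 and Hpgd. Lyz2, Ptgr2, Zadh2, single markers and genes at or near 0 were named outside that rule, after their values were seen. Motifs were chosen after the sequences were seen.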

Additional observations from a re-analysis of the deposited data

Results flagged for a closer look

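In 20 groups of values (10 genes in each genotype), 2 had a library far from the others, by a rule that chance meets in about 1 of 20 groups. Ptges3 in Mye-/- S8 was at 6199, against 4779.5 in the next Mye-/- library. Hpgd in Mye-/- S10 was at 1480.2, against 752 in the next, and that library also had the highest Kupffer cell and hepatocyte marker sums.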

How the results depend on the processing

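No paired analysis was possible because the genotypes share no replicate numbers. None of the 10 genes passed under any of the 26 alternatives that gave it an adjusted p, and Ptgs1, Ptgs2, Ptges, Ptges3, Hpgds, Hpgd, Ptger2 and Ptger4 kept their direction wherever they were tested. With the count of detected features as a term, Ptges2 (-0.22) and Tbxas1 (-0.15) reversed. Leaving out single libraries gave -0.088 (without fl/fl S4) to 0.90 for Ptges2 and -0.13 (without fl/fl S3) to 0.37 for Tbxas1. Among the other genes named, the count of detected features as a term reversed Itgam (-0.020), Pla2g4a (0.26) and Ptger1 (-0.22). Age as a term, or mice aged 11 weeks alone, reversed Daglb (-0.094), Fam213b (0.054), Ptgir (0.0060) and Ptger1 (-1.38). Leaving out fl/fl S1 and S3 reversed Itgam (-0.15), Lpcat3 (0.0017) and Ptger1 (-1.45). Ptger1 was also -0.078 and -0.0095 with a pseudocount of 50 and 8, -0.16 with quantile normalization, -0.088 with edgeR and -0.094 with DESeq2. Left-out single libraries gave -0.038 to 0.10 for Itgam, -0.024 to 0.21 for Lpcat2, -1.45 to 0.80 for Mgll, -0.38 to 0.048 for Pla2g4a, -1.21 to 1.33 for Ptger1 and -0.31 to 0.0036 for Ptgir. The causes were not tested. Over the same left-out libraries the log2 fold change ran from 0.60 to 0.97 for Ptger4, from -0.88 to -0.53 for Ptger2, from 0.89 to 1.71 for Hpgd and from 0.34 to 0.69 for Ptgs2. It ran from 0.80 to 2.14 for Ptgs1, from -2.17 to -0.33 for Ptges and from 0.18 to 2.43 for Hpgds. Nr4a2 passed in 12 of 26 alternatives, Lyz2 in 2 (DESeq2 and limma-voom) and S100a9 in 1, without Mye-/- S9. The count over all features, 3, was 17 with a pseudocount of 8 or 50, 12 among features whose mean reached 500, 6 with TMM, 8 with quantile normalization or limma-voom, 9 with robust limma or without fl/fl S1 and S3, 21 without a trend, 5 with array weights and 123 with DESeq2. It was 0 with age or with the count of detected features as a term and among mice aged 11 weeks alone, and ran from 0 (without Mye-/- S8 or S10) to 20 (without fl/fl S5) over left-out single libraries. A count of 3 reads is worth 2.41 to 3.58 normalized reads.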

Other observations

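Slco2a1, which encodes the prostaglandin uptake transporter and was picked for its values, reached a value of 10 in too few libraries to be tested. It was at 3.39 in Mye-/- S10 and at 0 in the other 4 Mye-/- libraries, against 0, 93.1, 124 and 71.2 in fl/fl libraries S1, S3, S4 and S5. These are low values, and low counts piled up near 56 reads in fl/fl S3, 70 in S4 and 34 in S5. In these libraries 1 read is worth 1.19, 0.873 and 0.879 normalized reads.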
